A study of Drosophila melanogaster and Drosophila yakuba and Drosophila virilis with 31 samples.

Results

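The genes described here are those encoding proteins of the cytoplasmic ribosome. They were taken as the genes whose symbol in the deposited expression table starts with RpL or RpS followed by a digit or by P, which gave 55 of the 5993 genes listed with their orthologs in all 4 species. Of these, 22 carry small subunit symbols, 31 carry large subunit symbols and 2 carry symbols of the ribosomal stalk (RpLP0 and RpLP0-like). RpLP0-like and RpL7-like are captured by their symbols, although both belong to families known from yeast as ribosome assembly factors and not as parts of the mature ribosome. Ribosomal protein genes listed under other names were not analysed here.

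The ribosome translates messenger RNA into protein, and its small subunit decodes the message while the large subunit joins the amino acids. Each ribosomal protein is needed in about equal amounts, and many of these genes are known in Drosophila as Minute loci, at which loss of a single copy delays development. The mother loads the egg with their messenger RNA, and the embryo later makes its own from the zygotic genome.

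The data were messenger RNA sequencing libraries, each from a single whole embryo or a single newly laid unfertilized egg, of D. melanogaster Oregon-R (mel), D. yakuba Tai18E2 (yak), D. pseudoobscura MV2-25 (pse) and D. virilis V46 (vir). Embryos were taken at the end of the blastoderm stage, after cellularization and before gastrulation, and were sexed by PCR for the Y chromosome. Of 31 libraries, 29 were compared, namely 3 female and 3 male embryos of mel and of yak, 2 female and 3 male embryos of pse, 3 female and 2 male embryos of vir, 2 eggs each of mel, yak and vir, and 1 egg of pse. One pse female and 1 vir male, which the study had removed for low quality, were left out unless stated. No group carried a transgene or a treatment. Embryos came from many mothers, 3 to 5 days old, of 1 strain per species, so a species and its strain cannot be told apart. The transcript models also differ between species, and their part in differences between species was not tested.

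Levels are FPKM, sequenced fragments relative to transcript length and library size, scaled by the study so that the 75th percentile of autosomal genes was equal between libraries. Read counts were not used here, so no depth per library and no counting error can be given. Markers of stage and sex were read against the labels. Of the 4 egg markers found, bcd, the maternal anterior determinant, was at 47.6 to 95.6 FPKM in the eggs and at most 1.7 FPKM in the embryos, and eve, a zygotic segmentation gene, was at 0 in every egg and at 3.29 FPKM or more in every embryo. The markers osk and nos were also higher in every egg than in any embryo of its species, whereas stau was higher on average in embryos in mel, yak and pse, and the blastoderm marker slam was higher on average in eggs in mel and yak. Sxl, the female switch gene, was at 358 to 926 FPKM in females and 51.4 to 140 FPKM in males, and msl-2, whose protein acts in males, was higher in every male than in any female of its species. In whole embryos, a lower level per cell and fewer cells carrying a transcript cannot be told apart.

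The ribosomal protein genes were among the most abundant transcripts of every egg and embryo. Together the 55 genes made up 27.4% ± 0.997 (SD, n = 6) of the summed FPKM of all listed genes in mel embryos, 27.9% ± 2.18 (n = 6) in yak, 30.7% ± 1.32 (n = 5) in pse and 31.4% ± 1.39 (n = 5) in vir. In the eggs the share was lower in mel, at 22.9% and 16.7%, and in yak, at 20.6% and 23.4%. The pse egg had 24.6%, below each of the pse embryos, which ranged from 29.7% to 33.0%. In vir egg 1, at 30.7%, lay within the embryos, which ranged from 29.7% to 32.6%, and egg 2, at 28.0%, lay below them. The 2 removed libraries had the highest shares of their species, 35.0% for the pse female and 38.9% for the vir male. The share does not depend on a scaling factor per library, and the quantile table, which forces 1 distribution on all libraries, moved the mean egg share to 27.7% in mel and 27.5% in yak, near the embryo means of 27.0% and 27.1% in that table.

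**Figure D1:**
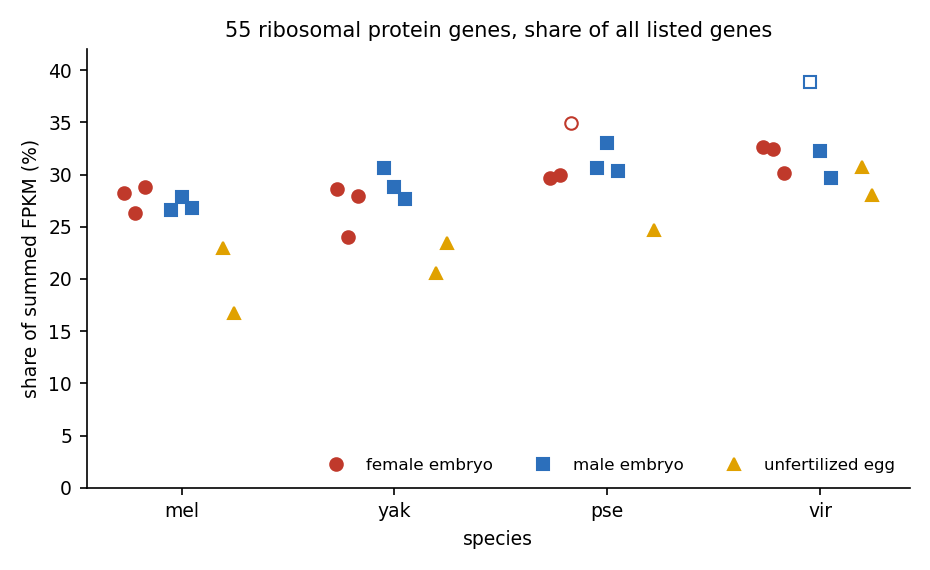
Share of the summed FPKM taken by the 55 ribosomal protein genes (vertical axis, percent) in each library, by species, with 1 point per female embryo, male embryo or egg and open points for the 2 libraries left out of the comparisons. The eggs of mel, yak and pse lie below every kept embryo of their species, while of the vir eggs 1 lies within the vir embryos, at 30.7%, and 1 below them, at 28.0%.

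The level of the median ribosomal protein gene ranked at the 99.3 to 99.5 percentile of all listed genes in every kept library. Over the group means of the 55 genes, the median was 2482 FPKM in mel embryos, with 47 of 55 above 1000 FPKM. The corresponding medians were 2606 FPKM in yak, 3067 FPKM in pse and 2791 FPKM in vir embryos. In eggs they were 1038 FPKM in mel, 1021 FPKM in yak, 1358 FPKM in the pse egg and 1645 FPKM in vir.

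RpL39, a very small protein near the exit tunnel of the large subunit, was the most abundant, with a mean of 6947 FPKM over the 29 libraries. RpL27A (4175 FPKM) and RpS25 (3901 FPKM) followed. The lowest means were those of RpLP0-like (90.4 FPKM), RpL7-like (213 FPKM) and RpS5b (408 FPKM), which puts a structural protein beside both assembly factor homologs.

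The order of the 55 genes by level was similar between species. Spearman's rho over the 55 genes was 0.893 between mel and yak embryos and 0.584 between mel and vir embryos, and for eggs it was 0.933 and 0.684. These correlations are across genes that share libraries and transcript models, and are given as descriptions. All 55 genes are classed as maternal in mel by the deposited classes of origin, and 53 are so classed in all 4 species. The exceptions, each classed as maternal and zygotic in 1 species, were RpLP0-like in pse and RpS5b in vir. Of all listed genes, the maternal class holds 60.7% (mel), 66.3% (yak), 67.8% (pse) and 62.3% (vir). By the paper's definition, transcripts of a maternal gene are loaded by the mother and not made by the embryo. Since FPKM is relative to library size, the rises given next are in relative level. The amount of RNA per embryo was not measured, and the cause of the rises was not tested.

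The first comparison asked how these levels differed between the unfertilized egg, which holds only maternal RNA, and the blastoderm embryo. Of the 55 genes, 54 were higher in mel embryos than in mel eggs, 52 in yak and 39 in vir. The median change on the log2(FPKM + 1) scale was 1.26 in mel, 1.27 for yak and 0.63 for vir, and the median ratio of mean FPKM was 2.35, 2.42 and 1.56. Among all 5983 genes tested, 44.2% were higher in mel embryos, 38.6% in yak embryos and 44.4% in vir embryos, with a median change of 0.18, 0.08 and 0.25. Among genes with the same maternal class, 29.4% in mel, 30.1% in yak and 30.4% in vir were higher in embryos. The paper took the mel classes from an earlier experiment that told maternal from zygotic transcripts. It predicted those of the other species from the egg and embryo levels compared here. In yak and vir the share among maternal genes is thus partly set by how the classes were made. Calls are an adjusted p under 0.05 in limma, with Benjamini-Hochberg adjustment over all genes tested.

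No ribosomal protein gene was lower in embryos in mel or yak by limma, and 1 was in vir, against 32% of all genes in mel, 33% in yak and 27.2% in vir. Without adjustment, 54 genes of the set passed p under 0.05 in mel and 52 in yak, the same numbers as with adjustment, and 44 in vir. Of all 5983 genes tested, 4624 in mel, 4363 in yak and 4379 in vir passed it, in either direction. The 1 gene that fell in vir was RpLP0-like, the assembly factor homolog. The levels of the 2 eggs themselves did not coincide: egg 2 of mel was above egg 3 in 55 of 55 genes, and in yak and vir 1 egg was the higher one for 54 of 55.

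The embryos and eggs did not overlap for 54 of 55 genes in mel, all of them higher in embryos, for 51 in yak and for 44 in vir, where 1 further gene was higher in both eggs. Among all listed genes every embryo was above every egg for 44.7% in mel, 38.4% in yak and 48% in vir, and every vir embryo was below both eggs for 28.9%. In pse, with 1 egg and so no test, all 5 embryos were above the egg for 55 of 55 genes, against 43.2% of all listed genes, and the median log2 difference was 1.23 against 0.08 over all genes. The smallest difference in pse was that of RpL39 (0.24) and the largest that of RpLP0-like (3.03).

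The rise held for both subunits. Of the 22 small subunit genes 22 rose in mel, 21 in yak and 16 in vir, with medians of 1.25, 1.23 and 0.60. Of the 31 large subunit genes 30 rose in mel, 29 in yak and 23 in vir, with medians of 1.29, 1.27 and 0.70.

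The size of the change rested on how the libraries were scaled. Without normalization of the levels estimated by eXpress, the median change of the 55 genes was 0.62 (mel), 0.64 (yak) and 0.16 (vir), and 49, 42 and 11 genes were higher in embryos, against 0, 2 and 5 higher in eggs, and 33.4%, 28.9% and 33.6% of all genes were higher in embryos. With the 95th percentile it was 0.475, 0.529 and 0.0861, with 39, 36 and 8 genes higher in embryos and 0, 2 and 7 higher in eggs, beside 30.9%, 27.1% and 32.2% of all genes higher in embryos. With TMM it was 0.872, 1.04 and 0.152, with 52, 52 and 10 genes higher in embryos and 0, 1 and 5 higher in eggs, beside 37.8%, 34.9% and 33.7% of all genes. With the median it was 1.64, 1.8 and 0.385, with 54, 52 and 18 higher in embryos and 0, 0 and 2 higher in eggs, beside 50.1%, 47.5% and 37.9% of all genes. After quantile normalization, which gives every library the same distribution, it was 0.015, 0.0563 and 0.00332, with 12, 13 and 6 genes higher in embryos and 4, 7 and 9 higher in eggs, beside 38.1%, 37.1% and 34.8% of all genes. In vir the share of the 55 genes called higher in embryos was thus below that of all genes in each of these 5 tables, and above it only with the 75th percentile. Of all genes, 43.2%, 43.8% and 36.3% were higher in eggs unnormalized, and 45.7%, 45.4% and 37.7% with the 95th percentile. With TMM they were 38.7%, 36.2% and 36.4%, with the median 25.7%, 24.5% and 31.1%, and after quantile normalization 35.7%, 35.3% and 33.7%. The share of the 55 genes higher in eggs was below that of all genes in each case. Leaving out vir egg 2 lowered the vir count from 39 to 22. In the 5 tables other than the quantile one, the median of the set lay above that of all genes in mel, yak and vir, by at least 0.0861.

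**Figure D2:**
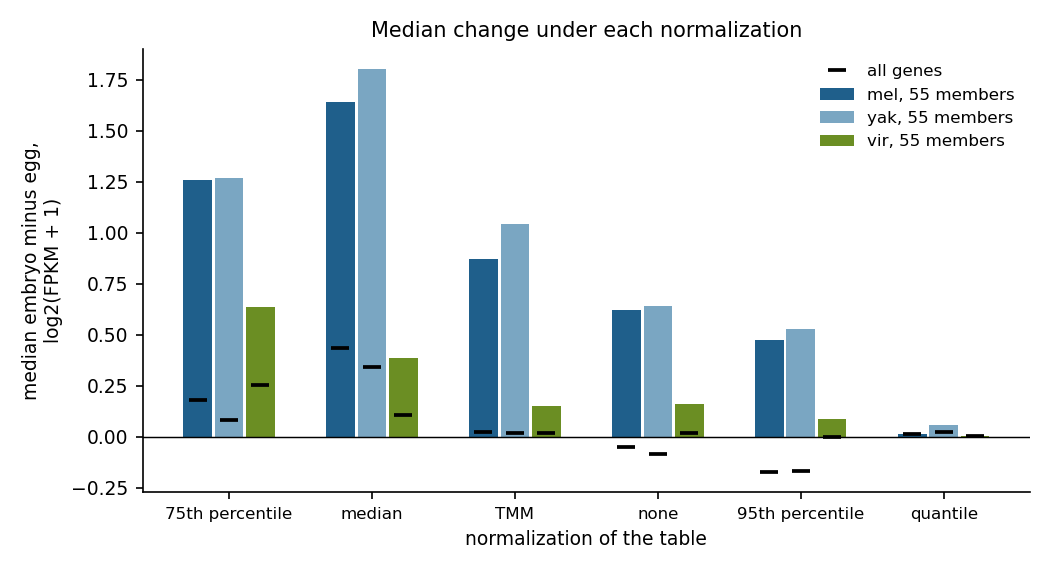
Median embryo minus egg change of the 55 ribosomal protein genes (bars, log2 scale) and of all genes tested (black dashes) in mel, yak and vir under the 6 deposited normalizations. The bars stand at 1.26, 1.27 and 0.63 with the 75th percentile, are highest in mel and yak with the median table and lie near 0 with the quantile table.

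**Figure D3:**
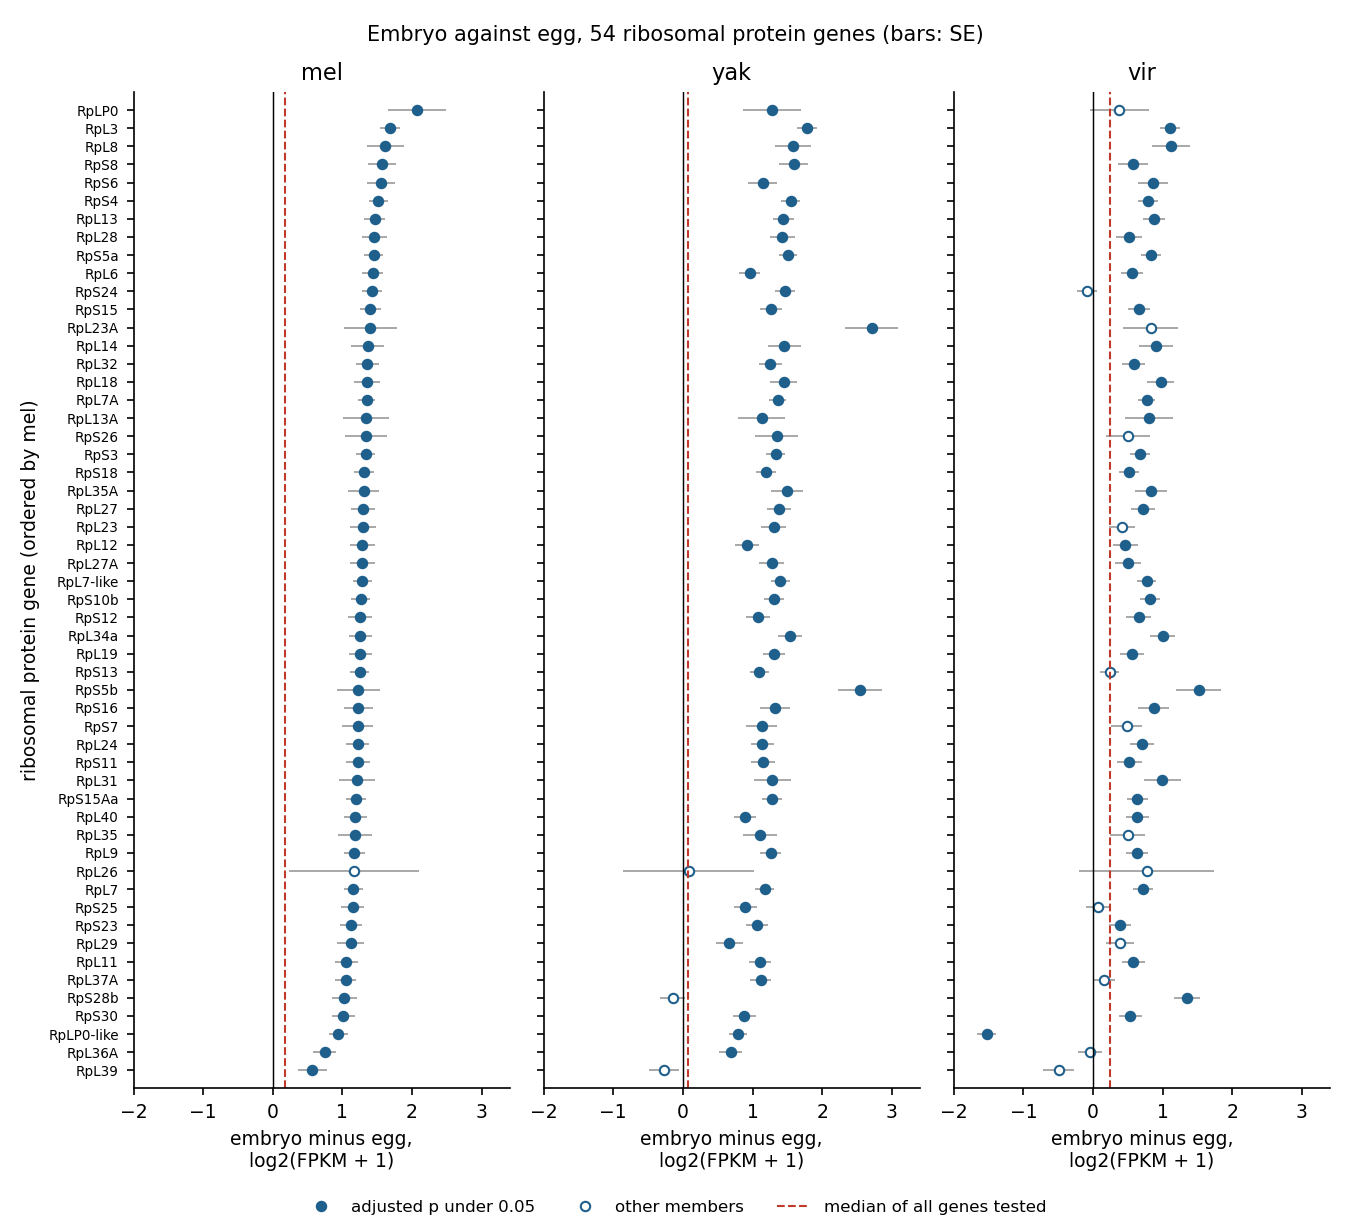
Embryo minus egg difference of 54 of the 55 ribosomal protein genes on the log2(FPKM + 1) scale, with SE bars, in mel, yak and vir, ordered by the mel value. Filled points passed an adjusted p of 0.05, and the dashed line is the median of all genes tested. The mel points range from 0.57 to 2.07 around a median of 1.26, the vir median is 0.63, and RpL39 has the lowest value in mel and yak.

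Among the structural proteins of the large subunit, RpL3, which lines the catalytic centre, was among the 3 largest rises in mel and yak. Its levels were 2850, 2972 and 2714 FPKM in mel males, 2654, 2568 and 3200 FPKM in mel females and 1001 and 766 FPKM in the eggs. All 6 embryos were above both eggs. The mel change was 1.69 ± 0.141 (SE), the yak change 1.78 ± 0.141 and the vir change 1.11 ± 0.145 (limma, adjusted p at most 4.19e-07).

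RpL8, another protein near the catalytic centre, had mel embryos from 969 to 1698 FPKM and eggs at 652 and 297 FPKM. It rose by 1.62 ± 0.262 in mel and 1.12 ± 0.27 in vir, among the 3 largest rises of each. The scatter between embryos was wide, as the lowest yak embryo had 883 FPKM and the highest 2198 FPKM.

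RpLP0, the scaffold of the ribosomal stalk, had the largest rise in mel. Its mel embryos had 986 to 1205 FPKM and its eggs 273 and 243 FPKM, a change of 2.07 ± 0.416. In vir the same gene split the embryos: the males had 636 and 2523 FPKM and the females 2519, 580 and 2483 FPKM, against 1320 and 870 FPKM in the eggs. The 2 low libraries, male 2 and female 2, were below both eggs and the other 3 embryos were above both. The vir change was 0.38 ± 0.429 (adjusted p = 0.452), and it was 0.88 without male 2 and 0.73 without female 2, with adjusted p of 0.0483 and 0.0418.

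RpL39, the most abundant of the set, overlapped between eggs and embryos in all 3 species with a test. The mel eggs had 6231 and 4397 FPKM and the mel embryos 5705 to 9186 FPKM, and the yak eggs, at 8522 and 9246 FPKM, lay within the yak embryos, at 6531 to 9397 FPKM. Its change was 0.57 ± 0.215 in mel, the smallest rise of the 55 there, -0.27 ± 0.215 in yak and -0.49 ± 0.222 in vir (adjusted p = 0.0203, 0.282 and 0.0523). The mel call was lost without egg 3 (adjusted p = 0.313), with the removed libraries kept (0.0615), with the replicate block (0.0677) and with TMM (0.457), and the sign turned with the unnormalized, 95th percentile and quantile tables. RpL39 was called lower in embryos in yak in the unnormalized (-0.90), 95th percentile (-1.01) and TMM (-0.50) tables, and in vir in each of the 5 other tables, with changes of -0.74 to -1.04 (adjusted p at most 0.0167). RpL39 also has the shortest transcript of the 50 genes with a length in the Ensembl BDGP6 annotation, 288 bases. Across those 50 genes Spearman's rho between length and change was 0.482 for mel, 0.424 for yak and 0.416 for vir, a description across genes that share libraries. FPKM divides by length, and the part of length in these values was not tested.

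RpS28b, a small subunit protein encoded on the X chromosome, rose in mel, by 1.03 ± 0.179, and in vir. In vir it had 3810 and 2517 FPKM in males, 4459, 4086 and 3129 FPKM in females and 1486 and 1233 FPKM in eggs, a change of 1.35 ± 0.185. In yak the embryos had 2240 to 3137 FPKM and the eggs 2467 and 3305 FPKM, which overlapped, and the change was -0.15 ± 0.179 (adjusted p = 0.493). RpS28b was called lower in yak embryos in the unnormalized (-0.78), 95th percentile (-0.89) and quantile (-1.245) tables (limma, adjusted p at most 0.000426). The mel call was lost with the 95th percentile (0.24, adjusted p = 0.179) and quantile (-0.27, adjusted p = 0.0573) tables. The yak change was lower than the mel change by 1.18 ± 0.254 (adjusted p = 0.000576).

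RpL23A, a large subunit protein at the exit tunnel, had the largest rise of any member in yak. The yak eggs had 74.6 and 101 FPKM, and the embryos spread from 225 to 1348 FPKM, giving a change of 2.71 ± 0.383 (adjusted p = 1.17e-06). In mel the eggs had 667 and 367 FPKM and the embryos 1028 to 1529 FPKM. No other kept library of any species was below 225 FPKM.

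RpL26, a large subunit protein chosen for mention after its values were seen, had 1 very low library. Male 3 of yak had 19.9 FPKM, while the other yak embryos had 424 to 2070 FPKM and the yak eggs 591 and 498 FPKM. The fit uses 1 spread per gene for all groups, so this library also widened the error in the other species. The mel change of 1.17 had an SE of 0.937 and did not pass (adjusted p = 0.268), although all mel embryos, at 1353 to 2135 FPKM, were above both eggs, at 1134 and 537 FPKM. Without yak male 3 the adjusted p in mel was 0.00404, and in a fit of mel alone it was 0.00741.

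The scatter between like embryos was small for most of the set. The mean SD of log2(FPKM + 1) within a sex and species was 0.08 for RpL7A and 0.10 for RpS3, the lowest of the 55, and its median over the 55 was 0.16. For 5 genes it was above 0.3, namely RpL26 (0.69), RpLP0 (0.46), RpL23A (0.37), RpS5b (0.34) and RpL13A (0.32). The group with the largest spread was a yak group for all of these but RpLP0, whose largest spread was in vir males. Female 2 of yak had the lowest value among the 6 yak embryos for 39 of 55 genes and the lowest share of its species, 24.0%. Leaving it out changed no count of calls by more than 1.5 times.

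The gain in vir was smaller than in mel for most of the set. The embryo minus egg change was lower in vir than in mel for 36 of 55 genes and lower than in yak for 30, against 32.3% and 29% of all genes tested, and both comparisons use the same vir libraries. The median difference of the changes was -0.66 against mel and -0.63 against yak. Over all genes it was -0.01 and 0.07. The change differed among mel, yak and vir, by a test of the 3 changes together, for 34 of 55 genes, while 80.3% of all genes passed that test. This count was 52 with the median table, 11 with the quantile table, 15 with the 2 removed libraries kept, 14 with the replicate block and 18 without vir egg 1. For these settings no share of all genes is given, so a shift of the set cannot be told from one of all genes.

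Levels were also compared between species within each stage. In eggs, 35 of 55 genes were higher in vir than in mel and 32 were higher in vir than in yak, against 24.8% and 26.9% of all genes tested. The median egg difference was 0.83 and 0.72, and 3 and 4 genes were lower in vir. Of all 5983 genes tested, 1697 were lower in vir eggs in each of these comparisons. In embryos 18 genes were higher in vir than in mel and 13 lower, against 38.5% and 42.2% of all genes, with a median difference of 0.19. In embryos 23 were higher in vir than in yak and 14 lower, against 42.2% and 37.6% of all genes, with a median difference of 0.13. The egg and embryo differences were set against each other only through the change, given before. RpS25 is a small subunit protein. Its vir eggs had 4833 and 4151 FPKM, within the range of the vir embryos, 4013 to 5173 FPKM, while its mel eggs had 2303 and 1481 FPKM and its mel embryos 3779 to 4766 FPKM. Its change was 1.15 ± 0.166 in mel and 0.06 ± 0.171 in vir (adjusted p = 0.771 in vir). In vir it was called lower in embryos in 4 other tables, by -0.41 unnormalized (adjusted p = 0.0302), -0.48 with the 95th percentile (0.00643), -0.42 with TMM (0.0348) and -0.315 with the quantile table (0.00892).

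RpLP0-like, whose yeast counterpart holds the place of the stalk protein in immature ribosomes, went the opposite way in vir. The vir embryos had 24.4 and 21.4 FPKM in males and 31.2, 31.2 and 25.3 FPKM in females, all below the eggs at 78.7 and 74.1 FPKM. The change was -1.53 ± 0.135 in vir (adjusted p = 8.04e-10), 0.94 ± 0.131 in mel and 0.79 ± 0.131 in yak. The vir change was lower than the mel change by 2.47 ± 0.188 (adjusted p = 1.74e-10). In pse the embryos had 117 to 155 FPKM and the egg 16.6 FPKM. With the 95th percentile table the rise of RpLP0-like no longer passed in mel (0.17) or yak (0.06), nor did it in yak unnormalized (0.17). RpL7-like, the other assembly factor homolog, rose in all 3 species with a test, by 1.28 (mel), 1.40 (yak) and 0.77 (vir). Its vir call was lost with the unnormalized (0.30), 95th percentile (0.23) and TMM (0.29) tables.

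The levels of the set also differed between species within a stage. In embryos, 52 of 55 genes differed among the 4 species by a test of all 4 together, and so did 98% of all genes tested, so the count for the set is near the background. In eggs of mel, yak and vir, 41 of 55 differed, against 65.2% of all genes. RpL35, RpS23 and RpS4 were the 3 that did not pass in embryos. RpL35, for example, had 1812 to 2762 FPKM in mel, 1747 to 3120 FPKM in yak, 2562 to 3260 FPKM in pse and 2137 to 3051 FPKM in vir embryos.

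RpS5a and RpS5b encode alternative forms of the same small subunit protein, RpS5b being known in D. melanogaster for its use in the ovarian germline. In mel both were of like level in embryos, with RpS5a at 781 to 1084 FPKM and RpS5b at 561 to 920 FPKM. In vir embryos RpS5b was at 10.6 and 8.86 FPKM in males and 6.39, 9.39 and 5.94 FPKM in females, and at 2.79 and 1.78 FPKM in eggs. RpS5a in the same embryos was at 2988 and 2778 FPKM in males and 3027, 3135 and 2690 FPKM in females, above every embryo of the other species, whose highest value was 1321 FPKM.

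The vir minus mel difference in embryos was -6.35 for RpS5b and 1.65 for RpS5a, and it was of the same direction in eggs, -6.64 and 2.26. The sum of both genes was 1705 ± 230 FPKM (SD, n = 6) in mel, 1771 ± 320 (n = 6) in yak, 1473 ± 195 (n = 5) in pse and 2932 ± 185 (n = 5) in vir embryos. RpS5b made up 41.8% to 49.5% of that sum in mel embryos, 24.1% to 42.8% in yak, 29.8% to 44.1% in pse and 0.211% to 0.355% in vir. Reads that fit both genes were divided between them by the study's estimation, so the split between the pair is less certain than the sum.

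With the 75th percentile table RpS5b rose between egg and embryo in each species with a test. The yak eggs had 68.2 and 132 FPKM and the yak embryos 298 to 951 FPKM, a change of 2.54 ± 0.314, against 1.23 ± 0.314 in mel and 1.52 ± 0.324 in vir. The mel call was lost without mel egg 3 (0.79, adjusted p = 0.0837) and with the unnormalized, 95th percentile and quantile tables (0.59, 0.45 and 0.29). RpS5a rose by 1.45 ± 0.135 in mel, 1.51 ± 0.135 in yak and 0.83 ± 0.139 in vir. RpS5b was 15.6% and 22.3% of the sum of the pair in the yak eggs, below each yak embryo, where the lowest share was 24.1%.

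RpL37A, a large subunit protein that binds zinc, was lower in pse than in the other species. Its pse embryos had 308.6, 342.5 and 313.5 FPKM in males and 283 and 327 FPKM in females, and the pse egg had 99.96 FPKM. The embryos of the other species had at least 1352 FPKM, and the lowest egg of another species had 810 FPKM. The pse minus mel difference was -2.70 and the vir minus pse difference 2.32 (limma, adjusted p at most 2.39e-13).

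RpL34a, one of a pair of genes for a large subunit protein, was high in vir. Its vir embryos had 1938 to 2628 FPKM and its vir eggs 1140 and 1049 FPKM, while mel embryos had 590 to 739 FPKM and mel eggs 353 and 217 FPKM. The vir minus mel difference was 1.72 in embryos and 1.98 in eggs. Its partner gene was not analysed here.

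**Figure D4:**
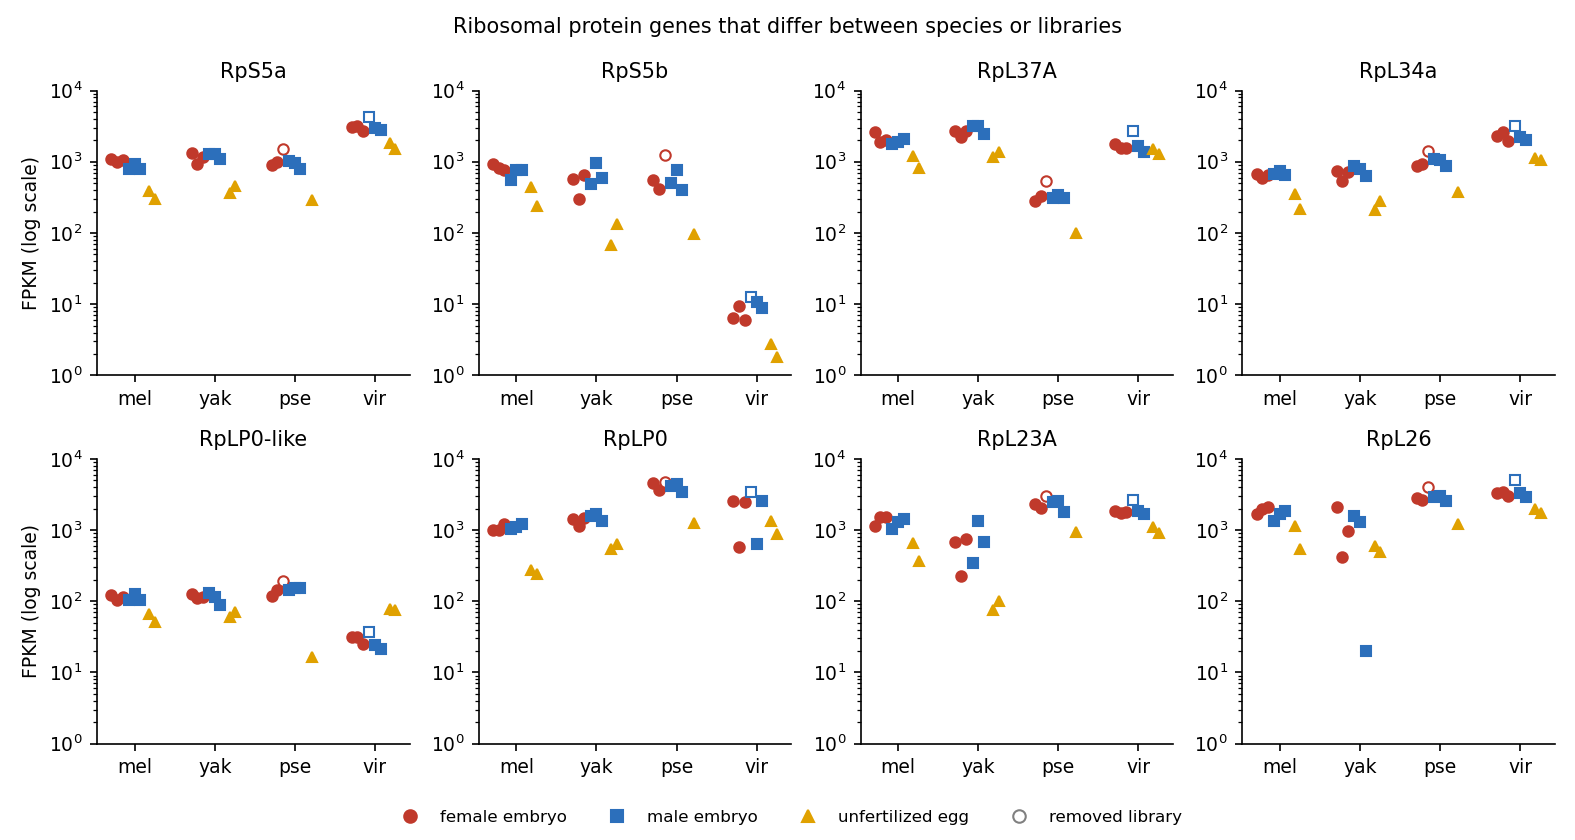
FPKM on a log axis of 8 ribosomal protein genes in every library, by species, with female embryos, male embryos and eggs as separate symbols and the 2 removed libraries open. RpS5b is at 10.6 FPKM or less in all kept vir libraries while RpS5a is highest there, RpL37A is low in pse, RpLP0-like is lower in vir embryos than in vir eggs, and RpL26 has a single low yak male at 19.9 FPKM.

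RpLP0 was highest in pse embryos, at 4144, 4464 and 3446 FPKM in males and 4495 and 3678 FPKM in females, against 986 to 1205 FPKM in mel. The pse minus mel difference was 1.89 (adjusted p = 3.73e-05). RpL14, RpL8 and RpL23A, which like RpLP0 lie on Müller element D, were also higher in pse than in mel embryos, by 0.85, 0.90 and 0.745. Over the 10 genes of the set on element D the median pse minus mel difference was 0.78, against 0.16 for the 38 on elements B, C and E and -0.23 for all 1124 genes tested on element D. The vir minus mel median of the same 10 genes was 0.57, against 0.15 for the 38 and -0.10 for all element D genes. The cause of these differences was not tested. This grouping was chosen after the values were seen.

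The second comparison asked whether X-linked members differed between female and male embryos, which carry different numbers of X chromosomes, before the canonical form of dosage compensation sets in. Element A, X-linked in each of the 4 species, carries 7 of the genes, which in release 5 coordinates of D. melanogaster are RpL35 (chrX:5566474-5567576), RpL7A (chrX:6425048-6427318), RpS6 (chrX:7793652-7795362), RpS28b (chrX:9448654-9449242), RpS15Aa (chrX:13229805-13231687), RpS5a (chrX:17037619-17042287) and RpS10b (chrX:19492063-19493108). All 7 lie on XL in pse. Element D is X-linked in pse only and carries 10 of the genes, all of them on XR there.

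None of the 7 genes on element A was higher in females or in males in any species by limma (0 of 7 in each). Without adjustment 1 passed p under 0.05 in mel, RpS5a, and 0 in yak, pse and vir. Of all 1014 genes tested on element A, 457 (mel), 350 (yak), 341 (pse) and 415 (vir) passed it, in either direction. Among all genes tested on element A, 16% were higher in mel females, 15.6% in yak females, 13.8% in pse females and 15.3% in vir females. Among those with an embryo mean above 100 FPKM, a level that each of the 7 exceeds, the percentages were 4.55%, 6.8%, 9.24% and 6.54%, and 0 of 7 is near that background. The median female minus male difference of the 7 genes was 0.13 (mel), -0.10 (yak), -0.04 (pse) and 0.07 (vir). Over all element A genes it was 0.31, 0.18, 0.19 and 0.30. In simulated data the test found 26.5% of sex differences of 0.5 in mel, so 0 calls do not exclude smaller differences such as these.

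RpS5a was the nearest to a difference. Its mel females had 1084, 997 and 1041 FPKM and its mel males 781, 926 and 791 FPKM, so that every female was above every male. The difference was 0.32 ± 0.258 (limma, with the half-width of its 95% interval, adjusted p = 0.222). The same form is used for the next intervals. In yak the females had 1321, 939 and 1166 FPKM and the males 1272, 1271 and 1106 FPKM, which overlapped, and pse and vir overlapped as well.

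RpS6, the small subunit protein that S6 kinase phosphorylates, had mel females at 2213, 2720 and 2862 FPKM and mel males at 2117, 2486 and 2496 FPKM. The groups overlapped, with a difference of 0.13 ± 0.366. RpL7A, the steadiest gene, had the narrowest intervals. Its mel difference was 0.07 ± 0.208, its yak difference -0.10 ± 0.208, its pse difference -0.05 ± 0.232 and its vir difference 0.05 ± 0.232. In mel the interval of RpL7A ends below 0.31, the median difference of all element A genes, whatever their level. No median was taken for the element A genes above 100 FPKM, which were called less often.

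RpL35 had the widest interval of the 7 in mel, 0.28 ± 0.414. RpS28b had a vir difference of 0.31 ± 0.393, with males at 3810 and 2517 FPKM and females at 4459, 4086 and 3129 FPKM. RpS15Aa and RpS10b, whose duplicates were not analysed here, had mel differences of 0.08 and 0.09. In each of these cases the sexes overlapped.

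**Figure D5:**
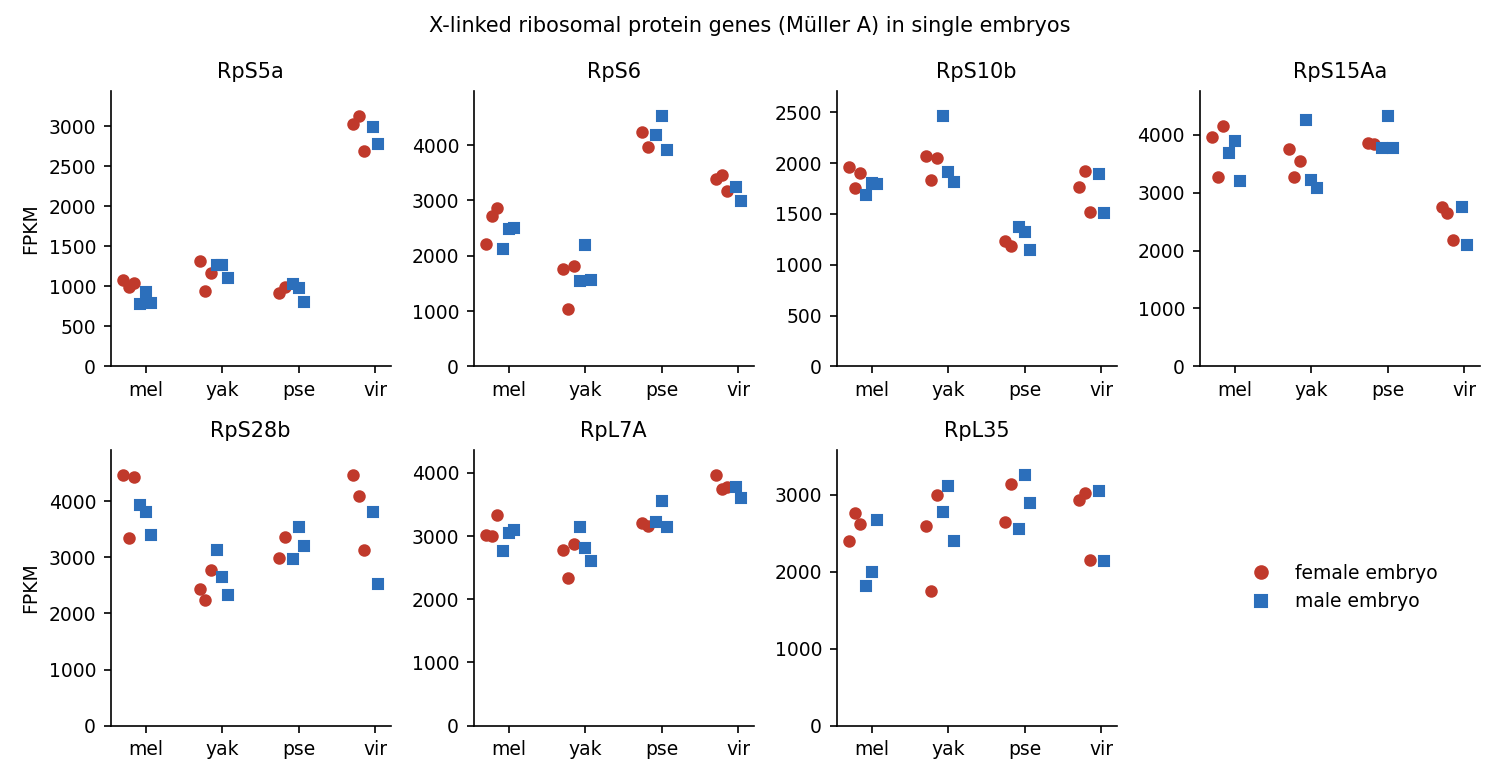
FPKM (linear axis from 0) of the 7 ribosomal protein genes on Müller element A in each kept female and male embryo, by species. Females and males overlap in each species and panel except RpS5a in mel, where females have 997 to 1084 FPKM and males 781 to 926 FPKM.

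None of the 10 genes on element D was higher in pse females by limma (0 of 10, and 0 at an unadjusted p under 0.05), against 14.7% of all element D genes and 6.52% of those with an embryo mean above 100 FPKM. Their median difference was -0.01 and that of all element D genes was 0.21. Of all 1124 genes tested on element D, 379 passed an unadjusted p under 0.05 in pse, in either direction. RpL14 differed by 0.05 ± 0.442 and RpLP0 by 0.03 ± 1.04, and both intervals include 0.21.

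The 38 genes of the set on elements B, C and E also gave 0 calls for either sex in every species, against 0.572% of such genes (mel), 0.26% (yak), 0.962% (pse) and 0.468% (vir). Without adjustment, 1 of the 38 passed p under 0.05 in each of mel, pse and vir and 0 in yak. As a whole the set leaned to 1 sex within a species, in opposite ways in different species. Of the 55 differences, 50 were above 0 in mel and 54 in vir, and 51 were below 0 in yak and 48 in pse, with medians of 0.11, 0.09, -0.13 and -0.06. Since the genes share their embryos, these counts are descriptions. Male 1 of mel was the lowest embryo of its species for 31 of 55 genes, yak female 2 for 39 and vir male 3 for 41, and pse male 2 was the highest for 42. Without yak female 2, 31 of 55 differences were below 0 in yak, without pse male 2, 25 were below 0 in pse, and without vir male 3, 24 were above 0 in vir. The medians were then -0.0029 in yak, 0.01 in pse and -0.02 in vir. Without mel male 1, 48 of 55 were still above 0 in mel, with a median of 0.07.

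Other genes of the translation machinery were compared between egg and embryo from fixed lists. All of these lists were read with a single normalization, the one behind the main counts of the ribosomal protein genes. Other normalizations altered the size of the change of the ribosomal protein genes. The effect of other normalizations on the lists was not tested. Of 21 translation factors, 13 rose and 6 fell in mel, 13 rose and 4 fell in yak, and 15 rose and 3 fell in vir. Their median changes were 1.29, 1.24 and 0.85. Among all genes, 44.2%, 38.6% and 44.4% rose and 32%, 33% and 27.2% fell, and no list was tested against them. Among them Ef1alpha48D, which brings aminoacylated transfer RNA to the ribosome, rose by 1.37, 1.49 and 0.77, and eIF-4E, which binds the cap, fell, with changes of -2.23, -3.30 and -2.42.

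Of 34 genes of the mitochondrial ribosome, 16 rose and 5 fell in mel, 6 rose and 8 fell in yak, and 12 rose and 10 fell in vir, with medians of 0.25, 0.01 and 0.13. Of 14 tested genes of ribosome assembly and RNA polymerase I, 11 rose and 3 fell in mel, 9 rose and 3 fell in yak, and 7 rose and 6 fell in vir. Fib, the fibrillarin methyltransferase of the nucleolus, rose by 1.94, 1.48 and 0.81. Of 9 tested genes known to regulate ribosomal protein genes or ribosome production, 5 rose and 2 fell in mel, 5 rose and 1 fell in yak, and 3 rose and 1 fell in vir. Trf2, which serves transcription of ribosomal protein genes in D. melanogaster, rose by 0.84 in mel and 1.54 in yak, and its vir change was 0.00 (adjusted p = 1).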

How the data were processed

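Libraries of single embryos and eggs were made and sequenced by the authors, who trimmed the reads, mapped them to transcripts with Bowtie2 (all mappings kept; version not given in the sources used here), used eXpress to estimate transcript levels, which were added up by gene, on release 5 gene models in mel and on previously made gene models in yak, pse and vir. Values were deposited as log10 of FPKM + 1 after normalization, in 6 tables that differ in normalization, and the 75th percentile table was the main one. A separate deposited table gives the class of origin of each gene. The 96 columns of group means were not used.

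Values were returned to FPKM and tested as log2(value + 1) with limma 3.58.1 in R 4.3.3 (empirical Bayes, trend), for 5983 genes with a group mean above 1 in at least 1 of 12 groups. Sexes were weighted equally in the embryo means. All 55 members passed the filter. All are in the counts and medians, and 1 is not reported here on its own. Benjamini-Hochberg adjustment was over all genes tested, with a threshold of 0.05, and intervals are 95% intervals of single genes. The code was tested on simulated data. For sex in mel it found 89.5% of log2 changes of 1 and 26.5% of changes of 0.5. For embryo against egg in vir it found 88.5% and 33.5%. Of the calls, 3.24% and 1.85% were wrong for sex in mel and 7.33% and 8.22% for embryo against egg in vir. Embryos came from many mothers. For eggs the mothers are not given in the sources used here, so p-values on them measure the spread between these samples, which may be technical.

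The mel chromosome arm set each member's Müller element. Named members were all those on element A, the 3 largest rises and falls per species among calls, the 5 with the largest range of species means in embryos and in eggs, the 3 highest and lowest levels, members of duplicated sets, and the 3 element D members with the largest sex difference in pse, plus members said to be chosen later or used as examples. The members, lists and tests were chosen with earlier results of these data known. Of the lists, 4 of 5 egg markers, 9 of 10 blastoderm markers, 14 of 16 assembly genes and 9 of 12 regulators were found. Transcript lengths were found by gene identifier for 50 of 55. Alternatives were the other tables, a pseudocount of 0.1, no filter or a filter of 10, the removed libraries kept, a block for replicate number, separate fits, and each library left out.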

Additional observations from a re-analysis of the deposited data

Results flagged for a closer look

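The embryo minus egg change of 16 of the 20 named genes differed between species by limma, at an adjusted p under 0.05 for the difference itself (log2 scale). Among all genes tested, 80.3% differed by a joint test of mel, yak and vir. The change was lower in vir than in mel for 32.3% of all genes, and lower than in yak for 29%. Many named genes were picked for large changes or ranges in these data, so the count is no result about the set. Comparisons with vir share the vir libraries, and all rest on 2 eggs per species.

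The change was lower in vir than in both mel and yak for 9 genes. The vir minus mel and vir minus yak differences were -2.47 and -2.32 for RpLP0-like, -1.08 and -0.83 for RpS25, and -0.89 and -0.95 for RpL37A. They were -0.79 and -0.78 for RpL27A, -0.62 and -0.68 for RpS5a, -0.58 and -0.59 for RpL7A, and -0.58 and -0.67 for RpL3. They were -0.56 and -0.64 for RpS15Aa and -0.51 and -0.63 for RpL7-like.

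Against mel alone the vir change was lower by -1.69 for RpLP0, -1.06 for RpL39 and -0.69 for RpS6. Against yak alone it differed by -1.88 for RpL23A, -0.49 for RpS10b and 1.498 for RpS28b. The yak change differed from the mel change by -1.18 for RpS28b, -0.84 for RpL39 and 1.31 for RpS5b. 

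Of these 27 differences, 15 lost their call when at least 1 library was left out, 9 of them without mel egg 3, 8 without vir egg 1, 6 without yak egg 1 and 4 without vir male 3. Without mel egg 3 the vir minus mel differences no longer passed for RpL27A (-0.325), RpL3 (-0.38), RpL7A (-0.32), RpL7-like (-0.30), RpLP0 (-1.605), RpS15Aa (-0.375), RpS5a (-0.44) and RpS6 (-0.29), nor did the yak minus mel difference of RpL39 (-0.59). The RpS5b difference did not pass without mel egg 2 (0.87) or yak egg 1 (0.84), RpS10b without each of 8 libraries and RpS6 without each of 14, pse libraries included. The 12 that passed without each library in turn were both differences of RpL37A, RpLP0-like, RpS25 and RpS28b, the vir minus yak difference of RpL23A, RpL3 and RpS5a, and the vir minus mel difference of RpL39. With the 2 removed libraries kept 15 lost their call, 13 did with the replicate block and 16 with the quantile table.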

How the results depend on the processing

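Of the values for single genes under the alternatives, 164 lost the call and 95 gained one in the same direction. A further 27 changed sign, with a call in at least 1 of both fits. The other 5699 kept their side of the threshold. Changes of sign where neither fit had a call are among these 5699. Of the summary values 800 stayed within 1.5 times or 1 SD and 53 did not. The count of element A genes higher in either sex was 0 of 7 in each species under each alternative run. Depth is unknown, so it sets no stated limit, and the cause of the shifts between normalizations was not tested.

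The median change in mel, yak and vir was 0.62, 0.64 and 0.16 unnormalized, 1.64, 1.8 and 0.385 with the median, 0.475, 0.53 and 0.0861 with the 95th percentile, 0.87, 1.04 and 0.15 with TMM, and 0.015, 0.056 and 0.0033 with the quantile table. Genes higher in embryos numbered 12 in mel and 13 in yak with the quantile table, and in vir 11 unnormalized, 18 with the median, 8 with the 95th percentile, 10 with TMM and 6 with the quantile table. Genes higher in eggs numbered 4 in mel with the quantile table, in yak 2 unnormalized, 2 with the 95th percentile, 1 with TMM and 7 with the quantile table, and in vir 5, 7, 5 and 9 in the same order, 2 with the median and 2 with a filter of 10. Without RpL7-like and RpLP0-like, a choice made after seeing the data, the vir count was 0. Among all genes, at least 24.5% were higher in eggs in each species under each of the other normalizations. The quantile table gave mean shares of 27.7% in mel eggs, 27.5% in yak eggs, 28.3% in pse embryos and 29.9% in vir embryos.

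Leaving out each library in turn, the median change ranged from 0.93 (without mel egg 3) to 1.64 (without mel egg 2) in mel, from 1.105 to 1.37 in yak and from 0.51 to 0.76 in vir. Genes higher in embryos numbered 48 to 55, 49 to 53 and 22 (without vir egg 2) to 42, and genes higher in eggs in vir 1 to 2. Genes that differed among species numbered 50 to 52 in embryos and 35 to 48 in eggs. Genes whose change differed among species numbered 34, and 18 (without vir egg 1) to 46 with a library left out, 52 with the median, 11 with the quantile table and 15 with the removed libraries kept. These counts of the set stand without the share of all genes under the same settings.

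The deviations of same-numbered females and males correlated at -0.13, -0.17 and 0.09 in mel and 0.23, -0.08 and 0.22 in yak. They correlated at 0.17 and 0.04 in pse and 0.35 and 0.47 in vir. These values were of both signs in mel and yak and positive in pse and vir. Whether same-numbered samples share more than a number cannot be told from them. With the replicate block 14 genes had a change that differed among species, and the other counts were 53, 52 and 39 genes higher in embryos, 50 that differed in embryos and 33 in eggs. No share of all genes is given with the block either.

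With the quantile table the following signs turned, with a call in at least 1 of both fits. In mel they were those of the change of RpL27A (-0.024), RpL35 (-0.13), RpL37A (-0.35), RpL39 (-0.34), RpS15Aa (-0.12), RpS25 (-0.16) and RpS28b (-0.27). In yak they were those of RpL35 (-0.0646), RpL37A (-0.13), RpS15Aa (-0.0327) and RpS6 (-0.10). In vir they were those of RpS15Aa (-0.0752), RpL37A (-0.61) and RpS25 (-0.315). The vir minus mel difference of the change turned to 0.35 for RpL27A, 0.0298 for RpL3, 0.0278 for RpL7A and 0.0464 for RpS15Aa, and the vir minus yak difference to 0.16 for RpL27A and 0.17 for RpS10b. RpL39 in mel was -0.0676 unnormalized and -0.22 with the 95th percentile, and with the 95th percentile RpL27A in vir was -0.0507, RpL37A -0.385 and RpS25 -0.48. RpS25 in vir was -0.41 unnormalized and -0.42 with TMM.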
